A study of Mus musculus with 6 samples.

Results

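Collagen chain genes encode the polypeptides that wind around each other into the triple helices of the extracellular matrix. They were taken from the FPKM table as the protein-coding genes whose GENCODE symbol is Col, a number, the letter a and a number. FPKM are fragments scaled to exon length and between libraries, and no source names how the deposited values were scaled between libraries. The rule found 44 genes among the 54532 rows, comprising 11 fibrillar, 6 basement membrane, 6 type VI, 9 FACIT (fibril-associated) and 12 other chains. The libraries came from hearts of male C57BL/6 mice, which were 6 to 8 weeks old at the start. In the Chow group, 3 mice ate standard chow and drank plain water. In the HFpEF group (heart failure with preserved ejection fraction), 3 mice ate a diet with 60% of its energy from fat and drank water with 0.5 g/L L-NAME, which blocks the enzymes that make nitric oxide. Both groups were followed for 12 weeks, the left ventricle was dissected, and each library came from a different mouse. The diet and the inhibitor were always given together, so their parts cannot be told apart, and no female mice were studied.

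Fibrillar collagens give the myocardium its tensile strength. Type I collagen combines alpha 1 chains from Col1a1 with an alpha 2 chain from Col1a2, and type III, from Col3a1 alone, forms finer and more compliant fibrils alongside it. Type IV collagens form the sheet of the basement membrane around cardiomyocytes and capillaries, type VI forms beaded filaments near cells, and FACIT collagens sit on the surface of fibrils. In the heart, fibroblasts make most of the fibrillar and type VI collagen, while type IV chains also come from endothelial cells and the muscle cells themselves.

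In Chow hearts the most abundant collagen mRNA per unit length was Col4a1, a basement membrane chain, in all 3 libraries. In HFpEF replicates 1 and 2 it was Col3a1, and in HFpEF replicate 3 it was Col1a1. The summed FPKM of the 44 genes was 311.7, 317 and 315 in Chow and 431, 511 and 5761 in HFpEF. The total was therefore 1.37, 1.62 and 18.3 times the Chow mean in HFpEF replicates 1, 2 and 3. As a share of the reads that could be recovered from the FPKM, collagen took 0.217%, 0.214% and 0.218% in Chow and 0.345%, 0.435% and 6.20% in HFpEF. Every HFpEF library lay above every Chow library in this sum, by very different amounts. Whether more cells made collagen or each made more cannot be told apart in tissue RNA.

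HFpEF replicate 3 stood apart from the other libraries in more than its collagen. Recovered reads came to between 13076772 and 15574914 per Chow library and between 13461735 and 16027084 per HFpEF library, and HFpEF replicate 3 lay inside that span. Mitochondrially encoded genes took 24.0% to 26.0% of the reads in Chow, 22.6% and 20.1% in HFpEF replicates 1 and 2, and 7.17% in replicate 3. The 12 ventricular cardiomyocyte markers identified the tissue in every library, with a summed FPKM of 18601 to 20268 in Chow against 13401, 14158 and 9026 in HFpEF replicates 1, 2 and 3, and all 12 were lower in every HFpEF library than in every Chow library, where 19.7% of all genes were. The part of these differences in the collagen results was not tested, and fitted values without HFpEF replicate 3 are given beside those from all 6 libraries.

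**Figure D1:**
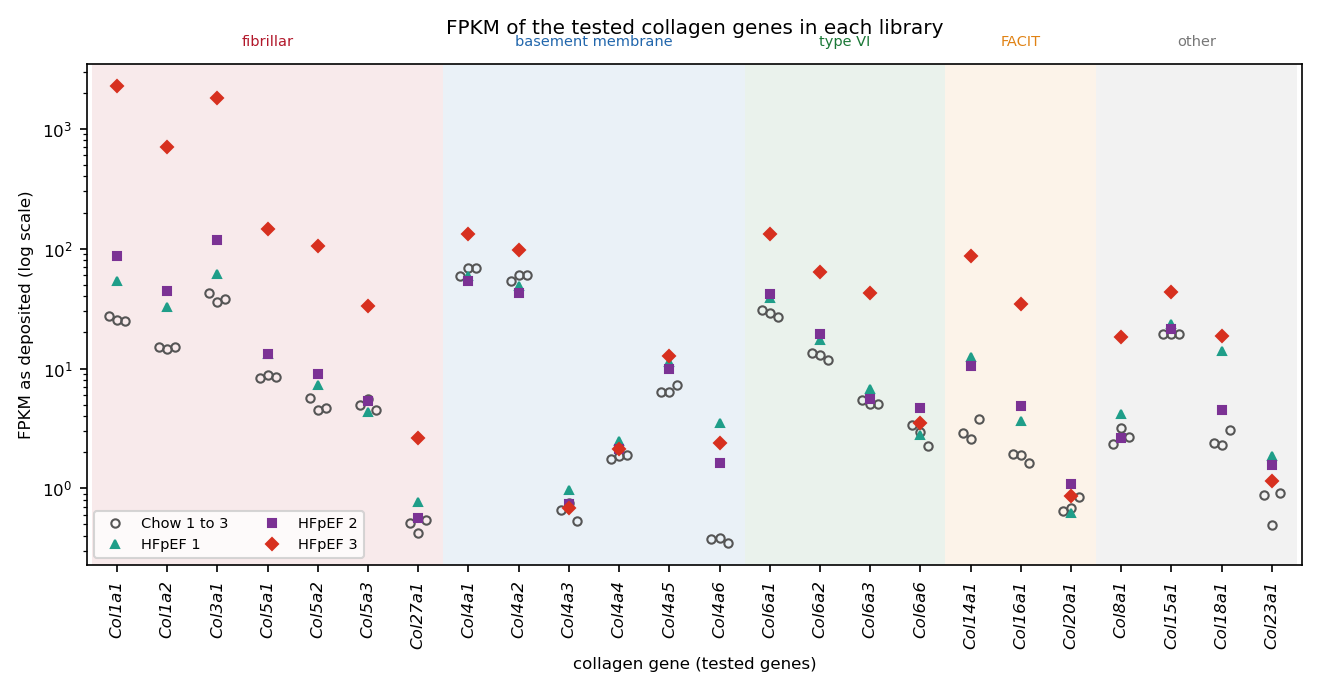
FPKM of the 24 tested collagen genes (y axis, log scale) in each library, grouped by class along the x axis, with open circles for the 3 Chow libraries and a filled symbol for each HFpEF library. Replicate 3 has the highest HFpEF value for 18 of the 24 genes, and Col1a1 reaches 2252 there.

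Genes were tested when 3 or more libraries reached an FPKM of 0.5, which kept 24 of the 44 genes, and Col4a6 passed it through its HFpEF libraries alone. The test was limma's moderated test on log2(FPKM + 0.1), with Benjamini-Hochberg adjustment over the 14225 genes tested. All 24 fitted log2 fold changes, HFpEF against Chow, were above 0, against 48.8% of all genes tested. Their median was 1.07, or 1.06 without Col4a6, and the median over all genes tested was −0.012. Every HFpEF library lay above every Chow library for 17 of the 24 genes, or 16 of the 23 other than Col4a6, where 15.6% of all genes did so. None of the 24 lay below Chow in every HFpEF library, as 19.7% of all genes did. The fitted value was 1 or more, a doubling, for 13 of the 24, Col4a6 among them, against 5.61% of all genes.

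No collagen gene passed an adjusted p of 0.05 in limma with all 6 libraries, where 0.0984% of all genes passed and 0.0914% of all genes passed as higher. At an unadjusted p under 0.05, 7 of the 24 were higher and 0 were lower, against 10.2% of all genes higher and 13.1% lower. Of the 23 genes other than Col4a6, 6 were higher at that p. The study's Methods define a differentially expressed gene by that adjusted p and a log2 fold change of 2 or more in size. In the limma fit 0.0562% of all genes met both. The study's Results write p without naming an adjustment, and its test was DESeq2. Of the 24 collagens 6 had a fitted value that large and none had it together with the adjusted p. These 6 were Col1a1, Col1a2, Col3a1, Col4a6, Col14a1 and Col16a1. Their standard errors ran from 0.30 for Col4a6 to 1.32 for Col1a1. Among them Col1a2, Col4a6, Col14a1 and Col16a1 had an unadjusted p under 0.05 in limma. The share of all genes that meets this p and the fold change together is not given.

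When HFpEF replicate 3 was left out, 10 of the 24 genes rose at an adjusted p under 0.05 in limma, or 9 of the 23 other than Col4a6, against 2.86% of all genes higher. None fell, where 5.5% of all genes did. Over all genes the calls went from 14 to 1189. The collagen median dropped to 0.50, with 21 of 24 values above 0. The 10 genes were Col1a1, Col1a2, Col5a1, Col5a2, Col4a5, Col4a6, Col6a1, Col6a2, Col14a1 and Col16a1. Without HFpEF replicate 2 the collagen genes that passed were Col4a6 and Col18a1, where 53 of all 14225 genes tested passed in either direction.

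**Figure D2:**
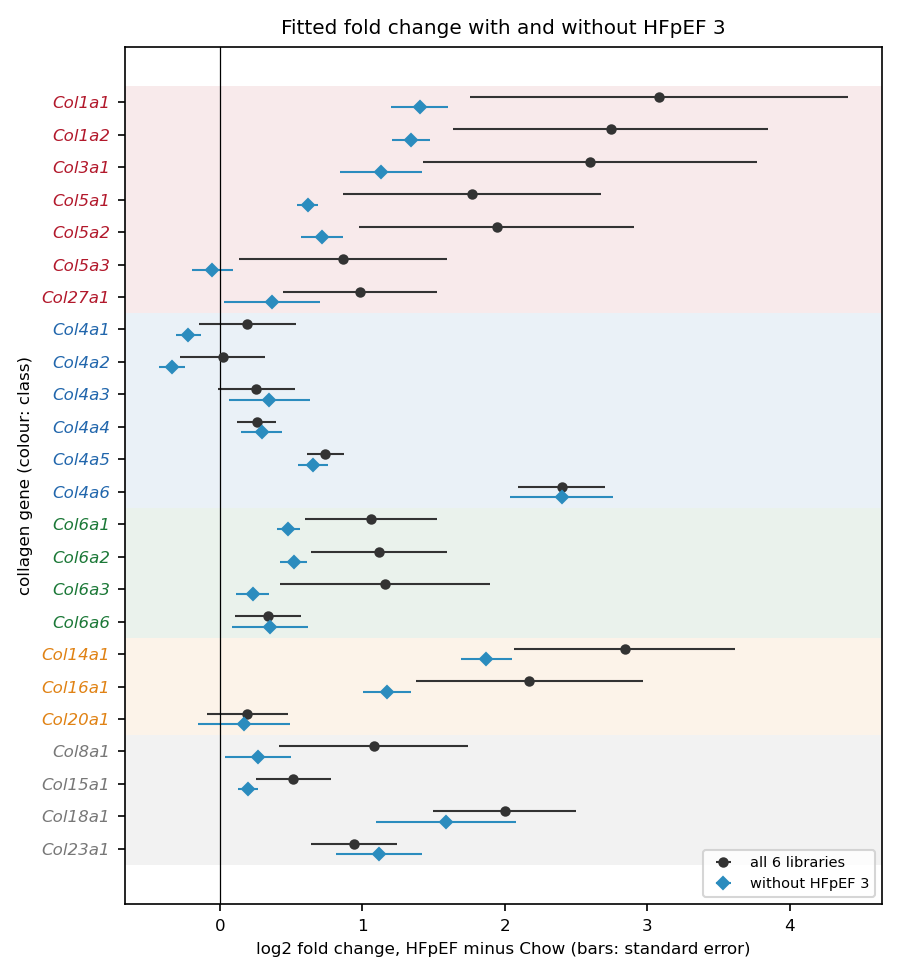
Fitted log2 fold change, HFpEF against Chow (x axis), of each tested collagen gene (y axis), with the standard error as a bar, from all 6 libraries (circles) and without HFpEF replicate 3 (diamonds). Leaving out replicate 3 takes Col1a1 from 3.08 to 1.40 and leaves Col4a6 at 2.40, while Col4a1, Col4a2 and Col5a3 cross to below 0.

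The fibrillar class had the largest sum and the widest spread in HFpEF. Its summed FPKM was 104.7, 95.9 and 96.7 in Chow and 175, 279 and 5055 in HFpEF. The class made up 30.3% to 33.6% of the summed collagen FPKM in Chow, and 40.6%, 54.6% and 87.7% in HFpEF replicates 1, 2 and 3. Of its 11 genes 7 were tested, with a median log2 fold change of 1.94 from all 6 libraries and 0.72 without HFpEF replicate 3.

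Col1a1 (chromosome 11, 94936224 to 94953042, GRCm38), the alpha 1 chain of type I collagen, had an FPKM of 27.2, 25.6 and 24.9 in Chow and 54.0, 87.2 and 2252 in HFpEF. All HFpEF libraries were above all Chow libraries, and replicate 3 alone was 87.0 times the Chow mean, where replicates 1 and 2 were 2.09 and 3.37 times it. In replicate 3 this gene took 1.88% of the recovered reads, against 0.0149% to 0.0163% in Chow. The log2 fold change was 3.08 ± 1.32 (SE; limma, adjusted p = 0.223) with all 6 libraries and 1.40 ± 0.20 (limma, adjusted p = 0.0214) without replicate 3.

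Col1a2, the alpha 2 chain, had an FPKM of 15.0, 14.6 and 15.0 in Chow and 32.4, 44.5 and 702 in HFpEF. The groups did not overlap, and the order of the HFpEF libraries was that of Col1a1. Its log2 fold change was 2.74 ± 1.10 (limma, adjusted p = 0.205), and 1.34 ± 0.14 (limma, adjusted p = 0.0132) without replicate 3. Col3a1 (chromosome 1, 45311538 to 45349706) had an FPKM of 42.8, 36.1 and 38.1 in Chow and 61.6, 118 and 1810 in HFpEF. Again the groups did not overlap, but the value of 2.60 ± 1.17 (limma, adjusted p = 0.239) and that of 1.13 ± 0.29 (limma, adjusted p = 0.0832) without replicate 3 both missed the threshold.

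Type V collagen is built into type I fibrils and limits their diameter. Its main chain, Col5a1, had an FPKM of 8.35, 8.79 and 8.56 in Chow and 13.3, 13.2 and 146 in HFpEF. Col5a2 had 5.62, 4.50 and 4.64 in Chow and 7.30, 9.05 and 105 in HFpEF. For both genes all HFpEF libraries were above all Chow libraries. Neither passed with all 6 libraries (1.77 ± 0.90 for Col5a1 and 1.94 ± 0.97 for Col5a2, limma adjusted p = 0.282 and 0.272). Both rose without replicate 3, Col5a1 by 0.62 ± 0.07 and Col5a2 by 0.72 ± 0.15 (limma, adjusted p = 0.0138 and 0.0400).

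Col5a3, a less widespread type V chain, differed from its partners. Its FPKM was 4.95, 5.59 and 4.53 in Chow and 4.34, 5.38 and 33.1 in HFpEF, so replicate 3 was high while replicates 1 and 2 lay below or within the Chow values. The log2 fold change was 0.87 ± 0.73 (limma, adjusted p = 0.485), and −0.052 ± 0.14 (adjusted p = 0.860) without replicate 3. Col27a1, a chain first known from cartilage, went from a mean of 0.492 ± 0.0597 (SD, n = 3) to 1.32 ± 1.14, with no overlap and no call (0.98 ± 0.54, limma adjusted p = 0.311). Without replicate 3 its value was 0.37 ± 0.34 (limma, adjusted p = 0.556).

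The remaining 4 fibrillar genes were below the filter. Col11a1 was at 0.0267 or less in Chow, at 0.0340 and 0.0139 in HFpEF replicates 1 and 2, and at 1.30 in replicate 3, where 321 reads could be recovered. Col11a2 had 0.257 to 0.375 in Chow and 0.920, 0.415 and 1.30 in HFpEF. Col24a1, a fibrillar chain best known from bone, had 0, 0 and 1 recovered reads in Chow and 3, 19 and 211 in HFpEF. Col2a1, the defining collagen of cartilage, stayed at 0 to 2 reads in every library.

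**Figure D3:**
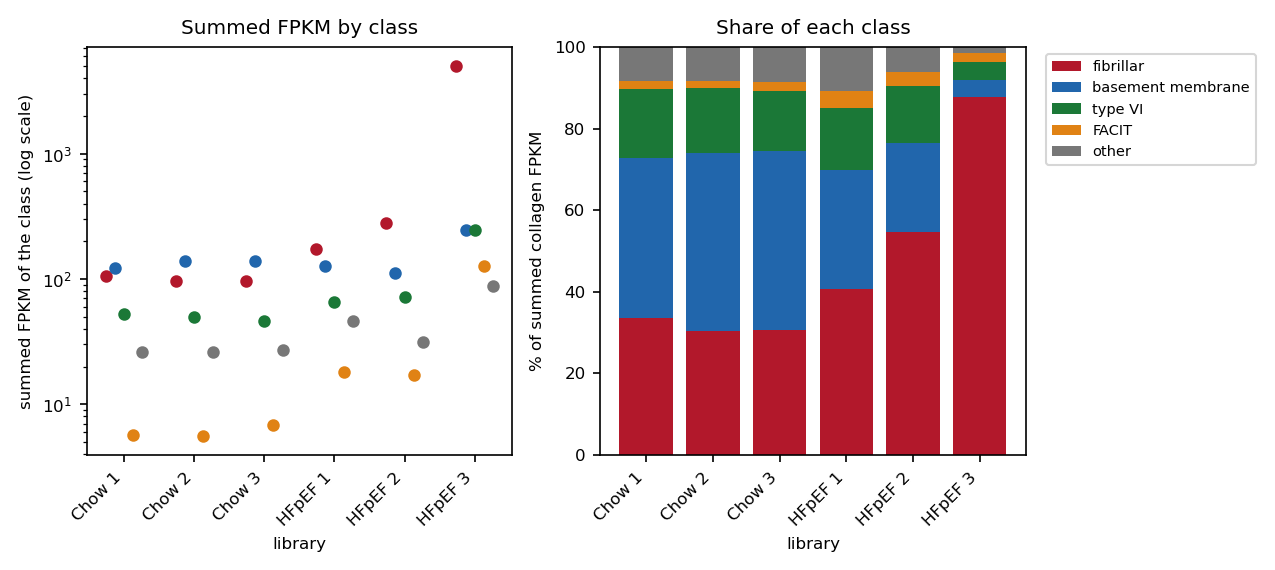
Summed FPKM of each collagen class in the 6 libraries (left, log scale) and the share of each class in the summed collagen FPKM (right, bars stacked to 100%). Fibrillar chains make up 30.3% to 33.6% in Chow and 87.7% in HFpEF replicate 3, while basement membrane chains go from 39.2% to 43.9% in Chow to 4.28% there.

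Basement membrane collagens did not follow one course. Their summed FPKM was 122, 139 and 138 in Chow and 126, 111 and 247 in HFpEF, so that HFpEF replicates 1 and 2 lay within and below the Chow range. The 6 genes were all tested, and the median log2 fold change was 0.26, or 0.32 without HFpEF replicate 3. They lie in 3 pairs, each pair with its members read away from each other from neighbouring starts. Col4a1 and Col4a2 on chromosome 8 overlap by 22 bases at their starts, Col4a4 and Col4a3 on chromosome 1 lie 71 bases apart, and Col4a6 and Col4a5 on chromosome X lie 1308 bases apart (GENCODE M21, GRCm38).

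The sequences before the starts are shown for the last 2 pairs because the paired genes differed in level, and for Col3a1 and Col1a2 because these are among the most abundant fibrillar chains. Each comes from RefSeq's promoter windows (250 bases before and 50 after each start, GRCm38.p6), with bases in GENCODE exons left out, and runs 5′ to 3′ on the gene's own strand. Capitals mark the CCAAT box, the GGGCGG box and the TATAAA box, or the same letters read from the other strand. Boxes outside the bases shown do not appear. These were a GGGCGG box of Col4a5, at −30 from its start, and CCAAT boxes of Col1a2, at −109 and 0. Windows were found for 35 of the 44 genes, and Col1a1 was not among them. The Col4a6 bases are chrX:141474077-141474326 (minus strand), those of Col4a5 chrX:141475169-141475384 (plus strand), and the 71 bases between Col4a4 and Col4a3, read on the Col4a4 strand, chr1:82586850-82586920. The Col3a1 bases are chr1:45311288-45311537 and the Col1a2 bases chr6:4505370-4505492 (both plus strand). The Col1a2 bases precede the RefSeq start at 4505618, while GENCODE starts the gene at 4504814, so they lie inside the GENCODE gene.
Col4a6: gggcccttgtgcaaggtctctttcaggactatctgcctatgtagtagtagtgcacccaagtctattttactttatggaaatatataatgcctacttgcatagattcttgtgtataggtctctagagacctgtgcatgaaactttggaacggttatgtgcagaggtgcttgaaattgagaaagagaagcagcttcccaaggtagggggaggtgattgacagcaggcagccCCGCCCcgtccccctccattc
Col4a5: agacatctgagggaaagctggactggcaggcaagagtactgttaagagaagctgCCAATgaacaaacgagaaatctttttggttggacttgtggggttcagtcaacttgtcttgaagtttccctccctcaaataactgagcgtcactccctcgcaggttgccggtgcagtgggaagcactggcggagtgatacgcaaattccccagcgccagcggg
Col4a4 to Col4a3: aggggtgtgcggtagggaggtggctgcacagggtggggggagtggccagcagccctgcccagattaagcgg
Col3a1: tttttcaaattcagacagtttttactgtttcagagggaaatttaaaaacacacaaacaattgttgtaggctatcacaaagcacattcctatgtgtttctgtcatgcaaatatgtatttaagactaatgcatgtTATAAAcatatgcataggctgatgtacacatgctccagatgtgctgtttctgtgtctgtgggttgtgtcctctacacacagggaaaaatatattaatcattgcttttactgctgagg
Col1a2: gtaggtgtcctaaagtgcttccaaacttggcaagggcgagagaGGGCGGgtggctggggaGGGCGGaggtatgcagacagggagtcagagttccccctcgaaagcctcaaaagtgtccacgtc

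GGGCGG, on either strand, was found in 23 of the 38 windows of the 35 genes (22 genes) and in 35.7% of the 32851 windows of all genes. CCAAT was in 13 of the 38 windows (13 genes) and in 37.4% of all windows, and TATAAA in 5 of the 38 (5 genes) and 13.6%. Some genes have more than 1 window, and a match describes the letters only.

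Col4a6 had the smallest p of the 24 tested collagens with all 6 libraries. This chain joins with Col4a5 in the basement membrane around smooth muscle and some epithelia. Its FPKM was 0.379, 0.385 and 0.353 in Chow and 3.53, 1.61 and 2.38 in HFpEF, from 34 to 43 recovered reads a library in Chow and 390, 218 and 367 in HFpEF. All HFpEF libraries were above all Chow libraries, and replicate 3 was not the highest. The log2 fold change was 2.40 ± 0.30 (limma, adjusted p = 0.0596), 2.40 ± 0.36 (adjusted p = 0.0200) without HFpEF replicate 3 and 2.67 ± 0.28 (adjusted p = 0.0438) without replicate 2. It passed the filter only through the HFpEF libraries. The 12 smooth muscle and pericyte markers summed to 762 to 799 in Chow and to 1079, 566 and 806 in HFpEF replicates 1, 2 and 3. Of the 11 tested, 0 were above every Chow library in every HFpEF library, against 15.6% of all genes. In every HFpEF library 3 were below every Chow library, against 19.7% of all genes. The smooth muscle actin gene Acta2 had an FPKM of 53.2 to 77.9 in Chow and 422, 48.8 and 262 in HFpEF, so Col4a6 and Acta2 had the same order among the HFpEF libraries, while in replicate 2 Col4a6 was above Chow and Acta2 was not. Their relation was not tested.

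Col4a5, which shares the interval on chromosome X, had an FPKM of 6.31, 6.33 and 7.34 in Chow and 11.2, 9.88 and 12.6 in HFpEF. The groups did not overlap and the 3 HFpEF libraries lay close together. Its log2 fold change of 0.74 ± 0.13 (limma, adjusted p = 0.0890) became 0.65 ± 0.11 (adjusted p = 0.0251) without HFpEF replicate 3. The ratio of Col4a5 to Col4a6 was 16.7, 16.5 and 20.8 in Chow and 3.18, 6.12 and 5.30 in HFpEF. Every HFpEF library was thus below every Chow library in this ratio of FPKM, which was described without a test.

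Col4a1 and Col4a2, whose chains form the network of nearly all basement membranes, were the most abundant collagens of Chow hearts. Col4a1 had an FPKM of 59.3, 68.6 and 68.3 in Chow and 58.6, 53.8 and 132 in HFpEF. Col4a2 had 53.9, 60.8 and 59.8 in Chow and 49.2, 43.0 and 96.6 in HFpEF. Both genes were thus below every Chow library in HFpEF replicates 1 and 2 and above every one in replicate 3. Among all genes tested, 23.9% lay below every Chow library in replicates 1 and 2.

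With all 6 libraries the log2 fold change was 0.19 ± 0.34 for Col4a1 and 0.02 ± 0.30 for Col4a2 (limma, adjusted p = 0.750 and 0.974). Without replicate 3 it was −0.22 ± 0.09 for Col4a1 and −0.34 ± 0.09 for Col4a2 (limma, adjusted p = 0.193 and 0.0778). The sign turned for both and neither passed. The 12 endothelial markers summed to 339 to 365 in Chow and to 324, 294 and 287 in HFpEF. Their part in the type IV values was not tested.

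Col4a3 and Col4a4, which join with Col4a5 in the basement membrane of the kidney filter, were low in the heart. Col4a4 had an FPKM of 1.84 ± 0.0750 (SD, n = 3) in Chow and 2.23 ± 0.206 in HFpEF, without overlap (0.26 ± 0.14, limma adjusted p = 0.300). Col4a3 had 0.652 ± 0.111 and 0.801 ± 0.150, with overlap (0.26 ± 0.27, limma adjusted p = 0.578), and 5.65% of its exon bases are shared with another gene. Without replicate 3 the values were 0.29 ± 0.14 for Col4a4 and 0.35 ± 0.29 for Col4a3 (limma, adjusted p = 0.267 and 0.505). HFpEF replicate 3 was not the highest library for Col4a3, Col4a4 or Col4a6.

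**Figure D4:**
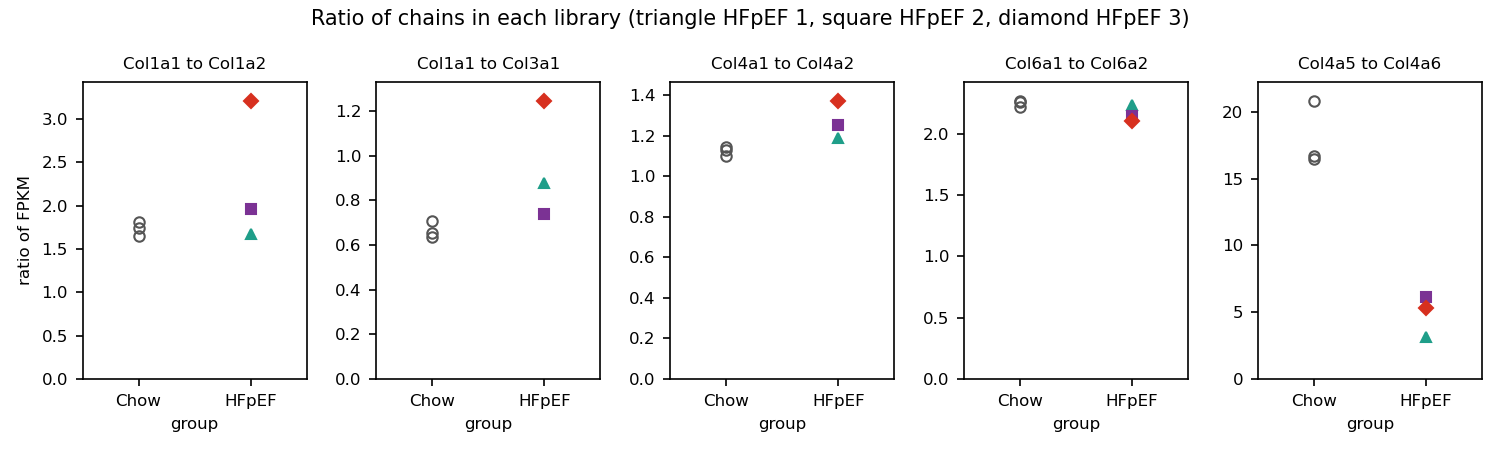
Ratio of the FPKM of 2 chains in each library (y axis, linear from 0) for Chow (open circles) and HFpEF (filled symbols). Col1a1 to Col3a1 and Col4a1 to Col4a2 are higher in every HFpEF library than in every Chow library, Col4a5 to Col4a6 is lower, and Col6a1 to Col6a2 stays between 2.10 and 2.27.

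The chains of one molecule did not all keep their proportions, and these ratios carry no test. The ratio of Col1a1 to Col1a2 was 1.81, 1.75 and 1.65 in Chow and 1.67, 1.96 and 3.21 in HFpEF, so replicate 1 lay within Chow and replicate 3 far above. Col1a1 to Col3a1 was 0.635, 0.708 and 0.654 in Chow and 0.876, 0.737 and 1.24 in HFpEF, without overlap. Col4a1 to Col4a2 was 1.10, 1.13 and 1.14 in Chow and 1.19, 1.25 and 1.37 in HFpEF, also without overlap. Col5a1 to Col5a3 went from 1.57 to 1.89 in Chow to 3.06, 2.44 and 4.40 in HFpEF. Col6a1 to Col6a2, by contrast, was 2.27, 2.22 and 2.26 in Chow and 2.24, 2.14 and 2.10 in HFpEF, with overlap and a small span although both genes more than doubled in replicate 3. Between a fibrillar and a basement membrane chain, Col3a1 to Col4a1 was 0.526 to 0.721 in Chow and 1.05, 2.20 and 13.7 in HFpEF, without overlap and far higher in replicate 3 than in the others.

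Type VI collagen is a filament of Col6a1, Col6a2 and another chain, most often Col6a3, that links cells to the surrounding fibrils. Col6a1 had an FPKM of 30.5, 29.0 and 26.6 in Chow and 38.7, 41.5 and 134 in HFpEF. Col6a2 had 13.4, 13.1 and 11.8 in Chow and 17.3, 19.4 and 63.6 in HFpEF. Both were above Chow in every HFpEF library. Their log2 fold changes were 1.06 ± 0.46 and 1.12 ± 0.48 (limma, adjusted p = 0.229 and 0.221). Without HFpEF replicate 3, Col6a1 rose by 0.48 ± 0.08 and Col6a2 by 0.52 ± 0.09 (limma, adjusted p = 0.0266 and 0.0306).

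Col6a3 had 5.45, 5.02 and 5.08 in Chow and 6.74, 5.53 and 42.8 in HFpEF. Its HFpEF libraries were also all above Chow, replicate 2 only narrowly, and its values were 1.16 ± 0.73 and, without replicate 3, 0.23 ± 0.12 (limma, adjusted p = 0.366 and 0.278). Col6a6, which can take the place of Col6a3, overlapped between the groups at 2.85 ± 0.551 (SD, n = 3) and 3.67 ± 0.954 (0.34 on the log2 scale, limma adjusted p = 0.394, and 0.35, adjusted p = 0.463, without replicate 3). Col6a5 was below the filter, with 4, 5 and 12 recovered reads in Chow and 21, 135 and 73 in HFpEF. Col6a4 had 0 reads in all libraries but HFpEF replicate 3, which had 9.

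FACIT collagens carried some of the largest fold changes outside the fibrillar class. Their summed FPKM was 5.71, 5.54 and 6.89 in Chow and 18.0, 17.1 and 128 in HFpEF. Replicates 1 and 2 were thus 2.98 and 2.83 times the Chow mean, where the fibrillar sum was 1.76 and 2.81 times it. Of the 9 genes 3 were tested.

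Col14a1, which binds decorin on fibrils and regulates fibril growth, had an FPKM of 2.89, 2.56 and 3.78 in Chow and 12.4, 10.5 and 86.6 in HFpEF. Every HFpEF library was at least 3.39 times the Chow mean. The log2 fold change was 2.84 ± 0.78 (limma, adjusted p = 0.125), and 1.87 ± 0.18 (adjusted p = 0.0126) without replicate 3. The latter was the lowest adjusted p of a collagen gene in that fit.

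Col16a1, which is often placed with the FACIT group, had 1.95, 1.88 and 1.64 in Chow and 3.68, 4.85 and 34.6 in HFpEF, without overlap. Its log2 fold change was 2.17 ± 0.80 (limma, adjusted p = 0.183), and 1.17 ± 0.17 (adjusted p = 0.0184) without replicate 3. Col20a1 overlapped between the groups at 0.725 ± 0.112 (SD, n = 3) and 0.858 ± 0.236 (0.19 on the log2 scale, limma adjusted p = 0.695, and 0.17, adjusted p = 0.789, without replicate 3).

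Col12a1, a close relative of Col14a1 found in tendon and in healing tissue, was below the filter because only HFpEF replicates 1 and 3 reached it. Its FPKM was 0.120, 0.118 and 0.125 in Chow and 0.664, 0.353 and 5.14 in HFpEF, from 21 to 26 reads in Chow and 140, 91 and 1513 in HFpEF. The groups did not overlap, and the exact two-sided permutation test gave p = 0.1, the smallest that 3 libraries against 3 allow. The other FACIT genes, Col9a1, Col9a2, Col9a3, Col19a1 and Col22a1, did not exceed 0.268 in any library.

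The other class holds chains with diverse roles. Col15a1 and Col18a1 encode multiplexins, collagens of the basement membrane zone that carry heparan or chondroitin sulphate chains. Col15a1, which is needed for normal cardiac muscle and capillaries, had an FPKM of 19.5, 19.4 and 19.5 in Chow and 23.6, 21.4 and 43.3 in HFpEF. The Chow libraries were nearly equal, every HFpEF library was above them, and the log2 fold change was 0.52 ± 0.26 (limma, adjusted p = 0.280), or 0.20 ± 0.07 (adjusted p = 0.146) without replicate 3.

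Col18a1, the source of endostatin, had 2.40, 2.32 and 3.07 in Chow and 14.1, 4.50 and 18.8 in HFpEF. Replicates 1 and 3 were high and replicate 2 was nearer to Chow, with no overlap. Its log2 fold change was 2.00 ± 0.50 (limma, adjusted p = 0.119), 1.59 ± 0.49 (adjusted p = 0.129) without replicate 3 and 2.61 ± 0.19 (adjusted p = 0.0341) without replicate 2. HFpEF replicates 1 and 3 were also the libraries high in Acta2 and in the 12 cartilage markers. The cartilage markers summed to 5.32 to 5.94 in Chow and to 42.7, 9.52 and 37.1 in HFpEF. Acta2 is in the activated fibroblast list as well as the smooth muscle and pericyte list. The latter list summed to 1079, 566 and 806 in HFpEF, against 762 to 799 in Chow. The part of smooth muscle, activated fibroblasts or cartilage-type cells in the Col18a1 values was not tested.

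Col8a1, a short-chain collagen of vessel walls, had 2.37, 3.20 and 2.70 in Chow and 4.19, 2.63 and 18.4 in HFpEF, with replicate 2 inside the Chow range (1.08 ± 0.66, limma adjusted p = 0.352). Without replicate 3 the value was 0.27 ± 0.23 (limma, adjusted p = 0.523). Its partner Col8a2 was below the filter at 0.0570 to 0.147 in Chow and 1.40, 0.118 and 3.43 in HFpEF. Both genes shared the order of the HFpEF libraries with Col18a1. Many other collagens had this order too, Col4a1, Col4a2, Col5a1, Col14a1 and Col15a1 among them. Col23a1, a transmembrane collagen, had 0.760 ± 0.234 (SD, n = 3) in Chow and 1.54 ± 0.362 in HFpEF without overlap, highest in replicate 1 (0.94 ± 0.30, limma adjusted p = 0.155, and 1.12 ± 0.30, adjusted p = 0.0795, without replicate 3).

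The remaining chains of this class stayed low. Col7a1, the anchoring fibril of skin, reached 0.881 in HFpEF replicate 3 alone, and Col28a1, known from nerve, went from 0.156 to 0.371 in Chow to 0.442, 0.530 and 0.845 in HFpEF. Col10a1, the marker of hypertrophic cartilage, had 1 read in 1 Chow library and 0 in the other 5. Col13a1, Col17a1, Col25a1 and Col26a1 did not exceed 0.487. Altogether 20 genes were untested, with highest values from 0.0179 to 5.14, and 12 of them stayed under 0.5 in every library.

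**Figure D5:**
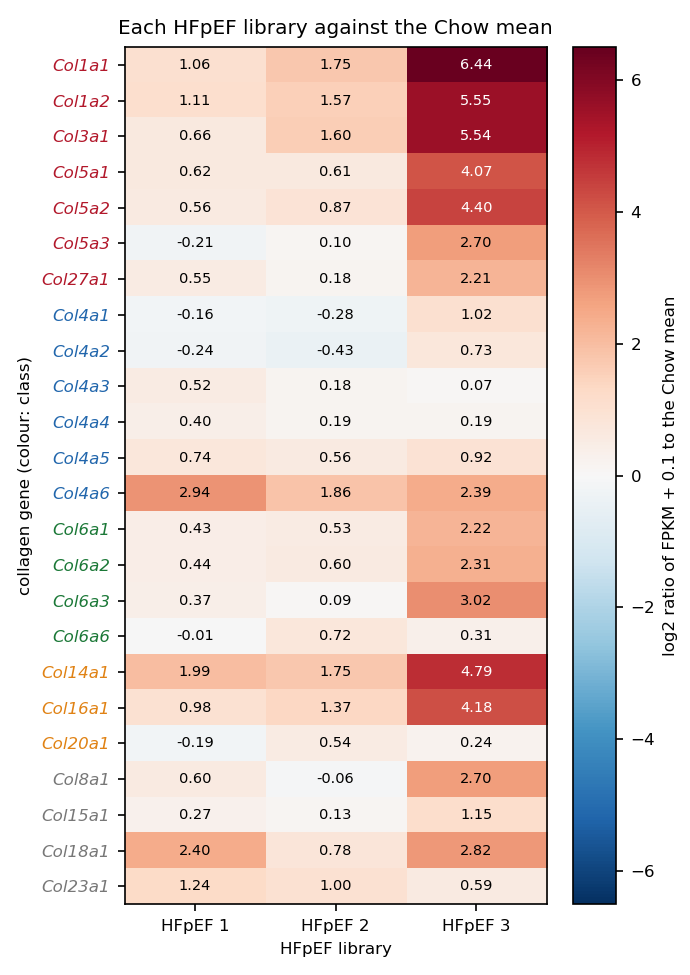
log2 ratio of FPKM + 0.1 in each HFpEF library (columns) to the mean of the Chow libraries for the 24 tested collagen genes (rows, coloured by class), with red above and blue below Chow. Col1a1 reads 1.06, 1.75 and 6.44 across the 3 libraries, and Col4a2 reads −0.24, −0.43 and 0.73.

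The HFpEF libraries differed in how far and in which chains they departed from Chow. The median log2 ratio to the Chow mean over the 24 tested genes was 0.56 in replicate 1, 0.58 in replicate 2 and 2.35 in replicate 3, against medians over all genes of −0.0091, −0.0061 and −0.022. For 18 of the 24 collagens the highest HFpEF library was replicate 3, as it was for 38.5% of all genes. It was highest for all 7 tested fibrillar genes and for 3 of the 6 basement membrane genes. In that library 17 of the 24 genes, Col4a6 among them, were at least 2-fold the Chow mean, against 11.3% of all genes. Replicates 1 and 2 were both above every Chow library for 17 of the 24 genes, against 20.6% of all genes. Replicate 1 was highest for Col4a3, Col4a4, Col4a6 and Col23a1, and replicate 2 for Col6a6 and Col20a1.

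Procollagen is modified, folded, trimmed and crosslinked by dedicated enzymes, and is broken down by matrix metalloproteinases held in check by TIMP inhibitors. Of 60 genes in 5 such lists 50 were tested, and 1 of the 50, the receptor gene Lair1, passed the filter through the HFpEF libraries alone. The lists were chosen with earlier results of these data known, so the counts below are not independent of those results. None passed an adjusted p of 0.05 in limma with all 6 libraries, and at an unadjusted p under 0.05 21 were higher and 2 lower, the latter being Timp4 and Adgrg1, against 10.2% of all genes higher and 13.1% lower. Without HFpEF replicate 3, 12 rose and 1 fell at an adjusted p under 0.05, against 2.86% of all genes higher and 5.5% lower. The list medians below are set against −0.012 over all genes tested. The gene that fell was the lysyl hydroxylase Plod1 (fell by 0.38 on the log2 scale, limma adjusted p = 0.0471), which, like Timp4, was named after its values were seen.

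Among the 20 tested folding and modification genes the median log2 fold change was 0.44, or 0.10 without HFpEF replicate 3, with 7 higher and 0 lower at an unadjusted p under 0.05, against the 10.2% and 13.1% of all genes. Serpinh1, the collagen chaperone HSP47, had an FPKM of 77.0, 74.4 and 80.3 in Chow and 75.4, 104 and 267 in HFpEF, overlapping with Chow in replicate 1 (0.73 ± 0.44, limma adjusted p = 0.344). P4hb, a subunit of prolyl 4-hydroxylase, had 71.3 to 75.8 in Chow and 82.0, 83.9 and 149 in HFpEF, without overlap (0.45 ± 0.24, limma adjusted p = 0.302). Crtap, which acts with prolyl 3-hydroxylase, had 18.0 to 19.2 in Chow and 21.8, 25.0 and 42.5 in HFpEF (0.61 ± 0.24, limma adjusted p = 0.204). With all 6 libraries the smallest p values belonged to the prolyl 3-hydroxylase family genes P3h2 and P3h3, at 0.86 ± 0.22 and 1.27 ± 0.34 (limma, adjusted p = 0.119 and 0.123). P3h3 rose by 0.86 (limma, adjusted p = 0.0212) without HFpEF replicate 3, and P3h2 had 0.69 (adjusted p = 0.0955). In the same fit Serpinh1, P4hb and Crtap had 0.20, 0.17 and 0.32 (limma, adjusted p = 0.432, 0.140 and 0.0717).

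The 6 tested propeptide processing genes had a median of 0.71, or 0.39 without HFpEF replicate 3, with 3 higher and 0 lower at an unadjusted p under 0.05, against the same 10.2% and 13.1%. Pcolce, which enhances cleavage of the C-propeptide, had 14.3, 16.0 and 15.6 in Chow and 21.3, 21.6 and 51.3 in HFpEF (0.90 ± 0.34, limma adjusted p = 0.187). Bmp1, the enzyme it assists, had 6.63 to 7.06 in Chow and 8.49, 8.65 and 36.5 in HFpEF (1.02 ± 0.55, limma adjusted p = 0.301). Adamts2, which removes the N-propeptide, had 4.33 to 4.50 in Chow and 8.83, 7.43 and 41.9 in HFpEF (1.65 ± 0.62, limma adjusted p = 0.188). The groups did not overlap for any of the 3, nor for Pcolce2 (0.51 ± 0.17, limma adjusted p = 0.162). Pcolce and Adamts2 rose without HFpEF replicate 3, by 0.49 and 0.86 (limma, adjusted p = 0.0224 and 0.0146), while Bmp1 and Pcolce2 had 0.33 and 0.45 (adjusted p = 0.0601 and 0.190).

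The 6 crosslinking genes had a median of 1.30, or 0.53 without HFpEF replicate 3, with 2 higher and 0 lower at an unadjusted p under 0.05, against 10.2% and 13.1% of all genes. Lox, the lysyl oxidase that starts covalent crosslinks, had 1.42, 1.47 and 1.32 in Chow and 3.92, 6.32 and 49.3 in HFpEF. The groups did not overlap and the order of the HFpEF libraries was that of Col1a1 (2.85 ± 0.87, limma adjusted p = 0.147, and 1.76, adjusted p = 0.0153, without replicate 3). Loxl1, best known for elastin, had 15.4 to 22.1 in Chow and 29.6, 33.8 and 111 in HFpEF (1.34 ± 0.49, limma adjusted p = 0.185). Tgm2, a transglutaminase, had 32.2 to 34.3 in Chow and 35.9, 42.7 and 27.4 in HFpEF, so replicate 3 was its lowest library (0.07 ± 0.17, limma adjusted p = 0.835). Without that library Loxl1 had 0.73 and Tgm2 0.24 (limma, adjusted p = 0.0515 and 0.174).

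The breakdown list held 11 tested genes with a median of 1.01, or 0.62 without HFpEF replicate 3, and 6 were higher and 1 lower at an unadjusted p under 0.05, against 10.2% and 13.1% of all genes. Mmp2, the gelatinase, had 30.8, 29.9 and 28.0 in Chow and 40.1, 42.3 and 115 in HFpEF (0.97 ± 0.40, limma adjusted p = 0.210). Among the inhibitors, Timp2 had 44.9 to 56.4 in Chow and 88.0, 87.9 and 130 in HFpEF (1.01 ± 0.19, limma adjusted p = 0.0988). Timp1 had 1.27, 1.44 and 1.30 in Chow and 4.23, 6.71 and 55.4 in HFpEF (3.04 ± 0.89, limma adjusted p = 0.139). All 3 were above Chow in every HFpEF library and rose without replicate 3, by 0.48, 0.82 and 1.92 (limma, adjusted p = 0.0199, 0.0157 and 0.0138). Timp3 was also without overlap, at 15.8 to 21.6 in Chow and 33.2, 27.0 and 23.9 in HFpEF (0.57 ± 0.17, limma adjusted p = 0.141), with replicate 3 the lowest of the 3, and had 0.68 (adjusted p = 0.0525) without it.

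Of the receptor genes 7 were tested, and 1 of them, Lair1, named after its values were seen, passed the filter on low values through the HFpEF libraries alone. The median of the 7 was 0.78, or 0.44 without HFpEF replicate 3, and it was 0.47 over the 6 genes left when the minimum FPKM was raised to 1. At an unadjusted p under 0.05, 3 were higher and 1 lower, against 10.2% and 13.1% of all genes. Ddr1, a receptor tyrosine kinase that binds collagen, had 6.71, 5.84 and 6.69 in Chow and 13.9, 13.4 and 9.26 in HFpEF, without overlap and lowest in replicate 3. Its log2 fold change was 0.90 ± 0.17 (limma, adjusted p = 0.0988), and 1.08 (adjusted p = 0.0118) without replicate 3. Ddr2, its relative on fibroblasts, had 5.24 to 6.30 in Chow and 7.70 to 14.1 in HFpEF (0.78 ± 0.23, limma adjusted p = 0.137). Itgb1, the shared beta 1 integrin subunit, overlapped between groups at 107 to 124 in Chow and 124, 102 and 160 in HFpEF (0.16 ± 0.19, limma adjusted p = 0.621). Adgrg1, a receptor for type III collagen, had 10.4 to 11.6 in Chow and 8.03, 9.72 and 7.64 in HFpEF (−0.40 ± 0.12, limma adjusted p = 0.146). Without replicate 3, Ddr2, Itgb1 and Adgrg1 had 0.53, −0.0085 and −0.33 (limma, adjusted p = 0.0501, 0.972 and 0.13).

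Markers of the cells that make collagen, and of others, were measured in the same libraries. The 12 fibroblast markers summed to 949, 843 and 756 in Chow and to 1371, 1362 and 1397 in HFpEF. Single markers were less even than this sum. For 9 of the 12 the highest HFpEF library was replicate 3, as it was for 38.5% of all genes. Their median log2 ratio to the Chow mean was 0.75, 0.68 and 1.07 in HFpEF replicates 1, 2 and 3. Dcn, for decorin, had 99.7 to 123 in Chow and 177, 168 and 196 in HFpEF. The 12 activated fibroblast markers summed to 116, 121 and 139 in Chow and to 585, 166 and 1238 in HFpEF. Acta2, which is also in the smooth muscle and pericyte list, made up most of that sum in HFpEF replicate 1 but not in replicate 3. Postn, for periostin, had 4.27 to 5.80 in Chow and 19.2, 16.2 and 356 in HFpEF. The 12 macrophage markers summed to 140 to 171 in Chow and 172, 240 and 446 in HFpEF. The 12 bone markers summed to 112 to 116 in Chow and to 129, 134 and 820 in HFpEF, of which Sparc, a collagen-binding protein that fibroblasts also make, had 797 in replicate 3. Of the 12 bone markers 5 were at 0 in all Chow libraries. Of these 5, Bglap2, Ibsp and Mepe were at 0 in every HFpEF library too, while the others were detected in HFpEF. Of the 12, 8 stayed under 0.5 in every library. The part of these cell types in the collagen values was not tested.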

How the data were processed

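RNA-seq of left ventricular myocardium from 3 Chow and 3 HFpEF mice was examined, with groups and replicate numbers taken from the sample labels. Values are the FPKM the authors deposited, from reads mapped with HISAT2 and assigned to genes by featureCounts. The labels name the builds GRCm38 and mm10, and the annotation release and strand setting are not given in the sources used here. Coordinates and exon lengths came from GENCODE M21 (GRCm38), which held 54495 of the 54532 gene identifiers. FPKM multiplied by exon length gave whole multiples of 1 step, at a relative tolerance of 1e-06, for 96.1% to 96.2% of the values above 0, from which reads were recovered. Deposited FPKM carry a scaling between libraries that no source names. Col11a2 and Col17a1 gave no whole reads.

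FPKM was rescaled by median-of-ratios factors (0.999 to 1.00), and log2(FPKM + 0.1) was modelled in limma 3.58.1 in R 4.3.3 (eBayes with trend and robust options). The fit took genes that reached an FPKM of 0.5 in 3 or more libraries, with Benjamini-Hochberg adjustment over all of them, and fold changes of low genes are understated on this scale. Class sums and chain ratios were described without a test. An exact permutation test, two-sided, was used for single genes. Counts of reads carry counting error only. The collagen genes, the 5 pathway lists and the 12 marker lists, all written by hand, were chosen with earlier results of these data known. Collagen genes with a mean FPKM of at least 5 in either group, or with a fitted log2 fold change of 2 or more in size, are given in every library. In each pathway list the 3 most abundant genes and up to 2 with the smallest p are named, and up to 4 of the most abundant markers. Single genes marking an overlap of another list with a result were added. The fit was also run on simulated counts with the same dispersion in both groups. That run does not cover a library that departs from its group, as HFpEF replicate 3 does. The 16 alternatives changed the scaling, the pseudocount, the filter, the model options, the replicate block or the libraries, or fitted voom to the recovered reads. Python 3.11.15, pandas 2.3.3 and matplotlib 3.10.9 were used.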

Additional observations from a re-analysis of the deposited data

How the results depend on the processing

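The count of 0 collagen genes at an adjusted p under 0.05 became 1 with equal summed FPKM and ran from 0 to 10 as each library was left out in turn. Over all genes tested, 36 passed with equal summed FPKM and 2 to 1189 with a library left out. The collagen count stayed at 0 under the other alternatives, voom on recovered reads among them. The 7 collagen genes higher at an unadjusted p under 0.05 became 14 with equal summed FPKM and 5 to 14 with a library left out. The share of all genes at that p is not given for the alternatives, so these counts have nothing beside them. Equal summed FPKM also moved the median over all genes from −0.012 to 0.50, and the basement membrane median from 0.26 to 0.74. The receptor median of 0.78 became 1.30 with equal summed FPKM, 0.62 with quantile normalization, 0.38 with a pseudocount of 1, 0.65 with no filter and 0.47 with an FPKM minimum of 1, and 0.44 (without HFpEF replicate 3) to 0.83 with a library left out. The sign turned without HFpEF replicate 3 for Col4a1 (−0.22, and up to 0.43 with another library left out), Col4a2 (−0.34, up to 0.25) and Col5a3 (−0.052, up to 1.40), without Chow replicate 1 for Col4a2 (−0.035) and with quantile normalization for Col20a1 (−0.023). The cause was not tested. Of the other values of single collagen genes, 363 kept their sign and side of the threshold and 13 passed it newly. Without a filter 40 of the 44 genes were above 0, with a median of 0.87, against a median of 0.057 over all 27437 genes in that fit.

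The labels name no pairing of the samples by replicate number. Deviations of same-numbered libraries correlated at −0.041, −0.073 and −0.057. With 3 libraries a group these values cannot show whether the samples were paired. With the replicate block 0 collagen genes passed, where 2 of all 14225 genes tested did, and the lowest adjusted p of a collagen gene in limma was 0.193. In that fit 8 collagen genes were higher at an unadjusted p under 0.05, with no share of all genes given. With 3 mice a group, the fold changes of fibrillar chains are limited by the spread among HFpEF mice, and low chains by few reads.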

Other observations

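The other marker lists were read in the same libraries. The 12 tendon and valve markers, led by Ogn, summed to an FPKM of 83.0, 86.0 and 83.3 in Chow and 206, 124 and 168 in HFpEF, so every HFpEF library was above Chow and replicate 1 was the highest. The 12 mesothelium and epicardium markers, led by Msln, summed to 47.1, 28.1 and 42.6 in Chow and 55.1, 184 and 88.3 in HFpEF, highest in replicate 2. The 12 Schwann cell markers summed to 19.1 to 22.1 in Chow and 31.5, 34.5 and 27.7 in HFpEF. None of these sums was highest in HFpEF replicate 3, where the fibrillar collagens were.

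The 12 adipocyte markers summed to 230.1 to 236 in Chow and 281, 281 and 178 in HFpEF. Pnpla2 and Fabp4, which heart muscle or its capillaries also express, made up most of each sum. Cfd, which encodes adipsin, was at 0 in all 3 Chow libraries and at 35.3, 37.8 and 22.9 in HFpEF. Of the 12 markers 9 were tested, and 6 of these 9, Cfd among them, passed the filter on low values through the HFpEF libraries alone, so no count of calls is given for the list. The order of the HFpEF libraries for Cfd differed from that for Col1a1, which was highest in replicate 3. The part of fat or other tissue dissected with the ventricle in the collagen values was not tested.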
